A study of Drosophila melanogaster with 24 samples.

Results

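The genes described here are the T-box, GATA and partner transcription factor genes of the Drosophila heart field: Doc1, Doc2, Doc3, mid and H15 (T-box), pnr (GATA), and Hand, svp and tup. They were taken by name from the authors' table of transcription start sites (TSSs), in which these 9 of 13220 gene symbols hold 62 of 45839 TSSs. The TSS with the highest mean over the libraries stands for each gene unless another is named, and tin, the NK homeobox gene of the heart, is given beside them from the same libraries.

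The data are csRNA-seq libraries, in which short capped RNAs are sequenced so that their 5' ends mark sites of active initiation. Whole Drosophila melanogaster embryos of strain Cas9 (genotype tinWT) and of strains F3 and M6 (both tinmDPE) were collected at 0-2, 2-4, 4-6 and 6-8 h, with 1 csRNA library per strain and window, 12 in all. The labels give the tinmDPE genotype by name only; it is known as a mutation of the downstream core promoter element (DPE) of the endogenous tin gene, carried by all cells of the animal. Each window holds 1 tinWT library, and tinWT is a single strain, so genotype and strain cannot be told apart. The p-values measure the spread between strains and libraries. In the tests within windows and of the interaction, that spread is only the one between F3 and M6, as the single tinWT libraries add none. The libraries hold 2632187 to 10553406 tags, and the 12 input libraries were not analysed here. In whole embryos, fewer cells of a type and less initiation per cell cannot be told apart. Values are the authors' regularized log values (rlog, a log2 scale) of tags at a TSS; they do not depend on transcript length.

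In the fly, tin sits at the head of the heart programme: it is expressed in the mesoderm and, where the dorsal ectoderm supplies the signal Dpp and the ectoderm stripes supply Wg, heart precursors form. The Dorsocross genes (Doc1, Doc2, Doc3) and pnr act with tin in those precursors, and Doc genes and pnr also act in the dorsal ectoderm, the Doc genes and tup in the amnioserosa. The T-box pair mid and H15, the bHLH gene Hand and the LIM-homeobox gene tup follow in heart cells, and the nuclear receptor gene svp in a subset of them. Several of these genes have further uses outside the heart: svp, tup and mid are also expressed in the nervous system.

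The start sites were set against the Release 6 annotation (dm6), with sequence from the RefSeq assembly. For 7 of the 9 genes the highest TSS lies on the gene's strand within 15 bp of an annotated start, in a 5' untranslated region: Doc1, Doc2, Doc3, mid, pnr, svp and tup. For Hand and H15 it does not. The only TSS assigned to Hand lies at chr2L:10295535-10295685 on the plus strand, while Hand is on the minus strand; its position is 225 bp before the annotated start of Hand, so it initiates away from the gene. It was called in 12 of 12 libraries, and no sense TSS of Hand was among the TSSs used here. The highest TSS of H15, at chr2L:5410566-5410716, is on the gene's strand but 6008 bp inside it, in an intron. The TSS at the annotated start of H15 was called in 2 libraries and has a mean of 0.72 against 4.09 for the intronic one. The values given for Hand and H15 below are therefore those of an antisense and of an intronic TSS, and not of their annotated promoters.

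The sequences of the 9 highest TSSs are shown because the study turns on a core promoter element and these starts can be read against that of tin. Each runs from 40 bases before the called start to 40 after it. Capitals mark the 6 bases around the start, from 2 before its first base (+1), where the initiator sits, and the 6 bases from +28, where a DPE sits.
Doc1, chr3L:9041347-9041427, plus: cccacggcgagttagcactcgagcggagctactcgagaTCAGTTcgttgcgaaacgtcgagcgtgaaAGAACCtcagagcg
Doc2, chr3L:9019200-9019280, minus: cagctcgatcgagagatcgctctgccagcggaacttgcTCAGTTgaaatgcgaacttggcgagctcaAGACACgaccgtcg
Doc3, chr3L:9005158-9005238, plus: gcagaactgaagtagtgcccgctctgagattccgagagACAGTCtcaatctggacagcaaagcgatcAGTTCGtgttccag
mid, chr2L:5461601-5461681, plus: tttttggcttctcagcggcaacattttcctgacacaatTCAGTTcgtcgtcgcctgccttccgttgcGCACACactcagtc
H15 (intronic), chr2L:5410601-5410681, plus: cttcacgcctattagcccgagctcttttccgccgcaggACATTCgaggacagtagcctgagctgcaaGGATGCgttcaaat
pnr, chr3R:16034548-16034628, plus: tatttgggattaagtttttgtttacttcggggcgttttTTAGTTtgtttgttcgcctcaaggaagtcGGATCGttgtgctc
Hand (antisense), chr2L:10295570-10295650, plus: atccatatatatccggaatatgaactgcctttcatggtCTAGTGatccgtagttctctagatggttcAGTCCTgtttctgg
svp, chr3R:12281103-12281183, plus: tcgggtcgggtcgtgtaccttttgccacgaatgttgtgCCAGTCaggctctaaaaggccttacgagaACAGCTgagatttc
tup, chr2L:18881216-18881296, minus: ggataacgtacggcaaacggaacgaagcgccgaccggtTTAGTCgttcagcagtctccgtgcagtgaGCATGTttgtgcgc
tin, chr3R:21378939-21379019, plus: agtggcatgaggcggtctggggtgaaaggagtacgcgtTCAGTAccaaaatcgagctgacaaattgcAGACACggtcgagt

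All 9 starts begin with A, as do 76.6% of the 18098 TSSs that the authors' table classes as promoter TSSs. The letters AGT at +1 to +3 stand at 8 of them, all but H15, against 27.4% of promoter TSSs. A full initiator, TCA followed by G or T, then T, then C or T, is at Doc1, Doc2 and mid, against 12.6% of promoter TSSs; all 3 read TCAGTT. The DPE consensus was A, G or T, then C or G, A or T, C or T, any base but T, and C or T. It matches at +28 in Doc2, mid, H15, Hand and tup, 5 of the 9, against 10.6% of promoter TSSs. It also matches in tin. Doc2 carries the same 6 letters there as the reference tin promoter, AGACAC, and mid has GCACAC. Both an initiator and a DPE at the set distance are in Doc2 and mid, and in 3.31% of promoter TSSs. A TATA box, TATA then A or T then A, starting 28 to 33 bases before the start, is in 0 of the 9 and in 4.86% of promoter TSSs.

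Short motifs were counted on both strands in 300 bases, from 250 before the start. The Zelda motif CAGGTAG is in Doc1 and Doc3 and in 3.03% of promoter TSSs. The Tinman motif TNAAGTG is in Doc3 and Hand, against 16.1%. The GATA motif GATAA is in Doc3, H15 and tup, against 49.5%, and the T-box motif GGTGTG is in tup, against 12.7%. None of these motifs contains another. A match is a description of letters only.

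The first question is how the starts changed over the 4 windows. Every one of the 9 changed with the window: 9 of 9 passed the limma F test with the strain as a block (adjusted p from 3.81e-05 for Doc1 to 0.0031 for Doc3, Benjamini-Hochberg over all TSSs), where 19.9% of all TSSs did. There were 2 shapes. The 7 TSSs at annotated starts were higher at 6-8 h than at 0-2 h in all 3 strains, with differences of the window means from 1.82 for Doc1 to 2.67 for svp. The intronic H15 TSS and the antisense Hand TSS were highest at 2-4 h in all 3 strains and lower at 6-8 h than at 0-2 h in all 3 strains. The tin start was also higher at 6-8 h than at 0-2 h in all 3 strains, by 2.21 in the window means (adjusted p = 0.000811 in the F test).

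The count of 9 falls to 6 without the tinWT strain, to 4 without M6 and to 0 without F3. Without F3, 0 of all 45839 TSSs pass that test, with 7894 at an unadjusted p under 0.05, while 9117 pass it with all strains.

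**Figure D1:**
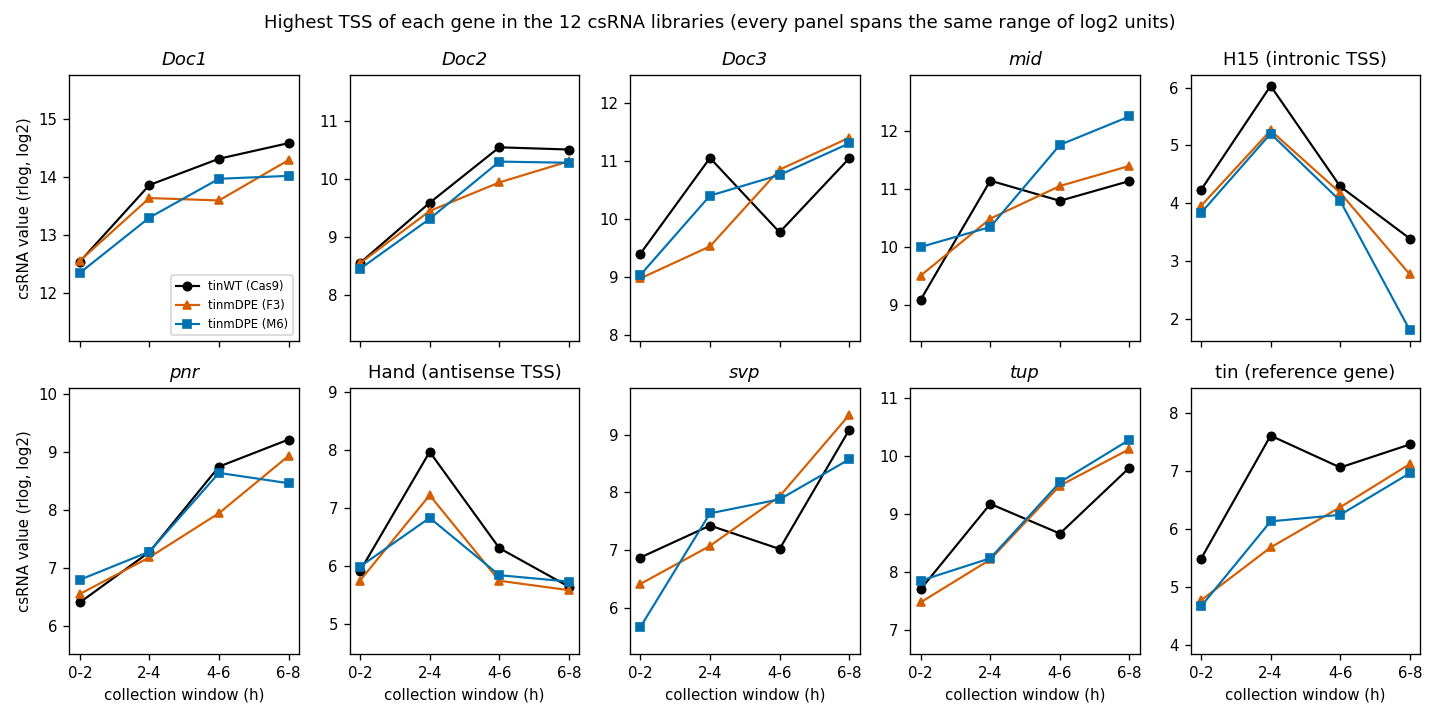
Values (rlog, log2 scale) of the highest TSS of each gene against the collection window, with 1 point per library and 1 line per strain; every panel spans the same range of log2 units. Doc1, Doc2, Doc3, mid, pnr, svp, tup and tin end above where they began in each strain, while the H15 and Hand TSSs peak at 2-4 h.

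The steps between windows place these changes. From 0-2 to 2-4 h the fitted values of all 9 members were higher, also with quantile normalization and with centred library medians, and 5 of 9 passed the test for a rise, where 4.22% of all TSSs rose and 2.44% fell. These 5 were Doc1, Doc2, mid, H15 and Hand. tin rose in the same step by 1.50 ± 0.32 (SE, adjusted p = 0.0128). From 2-4 to 4-6 h, pnr rose, where 0.386% of all TSSs did, and Hand fell, where 1.72% did. From 4-6 to 6-8 h, 0 of 9 passed in limma, where 0.513% of all TSSs did in either direction. An unadjusted p under 0.05 was found in that step for 4 of 9, and for 5257 of all 45839 TSSs. Without the tinWT 2-4 h library, only Doc1 and Doc2 passed in the first step, at adjusted p = 0.037 and 0.049. With centred library medians, which move the median step of all TSSs from 0.09 to -0.09, 3 members passed and with quantile normalization 8 did.

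The Dorsocross genes form a cluster of T-box genes on 3L, with the Doc2 start 14.0 kb from that of Doc3 and the Doc1 start 22.1 kb from that of Doc2. Doc1 is the strongest start of the set and the 16th strongest of all 45839 TSSs by mean. Doc1 read 12.54, 13.86, 14.31 and 14.58 in tinWT over the 4 windows in order, 12.55, 13.63, 13.59 and 14.29 in F3, and 12.34, 13.30, 13.97 and 14.02 in M6. The 0-2 h libraries are the lowest in every strain, and the rise to 2-4 h was 1.12 ± 0.19 (SE, adjusted p = 0.00486). Doc2 read 8.55, 9.58, 10.54 and 10.50 in tinWT, 8.54, 9.44, 9.94 and 10.30 in F3, and 8.44, 9.31, 10.30 and 10.28 in M6. The 3 libraries of a window lie close together, at most 0.61 apart, and the first step was 0.93 ± 0.23 (adjusted p = 0.0235). Its second step, 0.81 ± 0.23, missed the threshold at adjusted p = 0.0792. Doc3 read 9.40, 11.05, 9.77 and 11.05 in tinWT, 8.97, 9.53, 10.85 and 11.40 in F3, and 9.03, 10.40, 10.76 and 11.31 in M6. The first step was 1.19 ± 0.35 and missed the threshold at adjusted p = 0.0525. Both tinmDPE strains climb from window to window, while the tinWT value at 4-6 h lies below those at 2-4 and 6-8 h. That tinWT 4-6 h library is also the only one of the 12 in which the authors did not call the Doc3 TSS.

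Around the 3 Doc starts the table lists 21 further TSSs, all of them weak beside the promoters. The strongest is a divergent TSS 344 bp from the Doc2 start, on the opposite strand, with a mean of 3.16, called in 8 libraries. An antisense TSS 2101 bp before Doc1 lies in an exon of lncRNA:CR46451, a long noncoding RNA gene on the minus strand, and has a mean of 2.05. It rose by 1.80 ± 0.45 from 0-2 to 2-4 h (adjusted p = 0.027) and read 3.89, 2.91 and 2.97 at 2-4 h in tinWT, F3 and M6, against 1.12, 1.09 and 2.15 at 0-2 h.

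**Figure D2:**
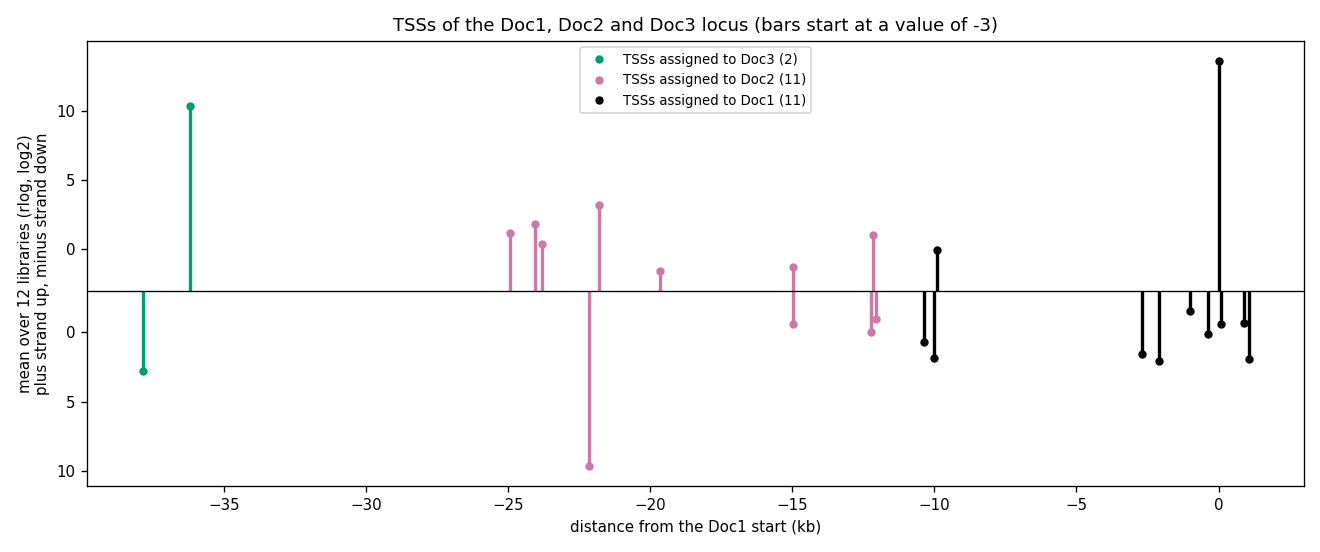
Mean value over the 12 libraries (rlog, log2 scale) of every TSS assigned to Doc1, Doc2 or Doc3, against distance from the Doc1 start in kb, with plus-strand TSSs drawn up and minus-strand TSSs down. The 3 promoter TSSs, with means of 13.6, 9.64 and 10.3, stand above all others, which reach 3.16 at most.

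The other T-box pair, mid and H15, are neighbours on 2L with annotated starts 57.4 kb apart, and related to the vertebrate Tbx20 gene. mid read 9.10, 11.15, 10.80 and 11.14 in tinWT, 9.51, 10.49, 11.06 and 11.40 in F3, and 10.01, 10.35, 11.77 and 12.26 in M6. M6 is the highest strain in every window but 2-4 h, where tinWT is. Its first step was 1.13 ± 0.30 (adjusted p = 0.0356). The H15 intronic TSS read 4.23, 6.03, 4.29 and 3.39 in tinWT, 3.96, 5.26, 4.18 and 2.78 in F3, and 3.84, 5.20, 4.04 and 1.81 in M6. It rose by 1.49 ± 0.34 in the first step (adjusted p = 0.0176), and the 2 later steps, -1.32 ± 0.34 and -1.51 ± 0.34, had adjusted p = 0.0544 and 0.0573. The TSS at its annotated start stayed between 0.10 and 1.68 in the 12 libraries, so the pair differ in where initiation is seen: mid has 1 TSS with a mean above 2, at its annotated start, and H15 has 1, in its intron. The sequences above differ too, mid having both core elements and the intronic H15 TSS the letters at +28 without the initiator. The weak TSS at the annotated start of H15 does have an initiator, TCATTC, and no DPE match at +28.

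pnr encodes a GATA factor of the dorsal ectoderm and heart precursors. Its highest TSS read 6.41, 7.28, 8.75 and 9.22 in tinWT, 6.55, 7.19, 7.95 and 8.94 in F3, and 6.80, 7.28, 8.64 and 8.47 in M6. It was near the same level in the 3 strains at 2-4 h, with an SD of 0.05, and rose by 1.20 ± 0.29 to 4-6 h (adjusted p = 0.042). Its first step, a rise of 0.66 seen in all 3 strains, did not pass, while those of Doc1 and Doc2 did. The order of the steps was not itself tested, so a later rise of pnr is not shown. Without the tinWT 2-4 h library the pnr step to 4-6 h was 1.13, with adjusted p = 0.0916. A further sense start of pnr lies 8.33 kb upstream, at chr3R:16026179-16026329, at the annotated start of other pnr transcripts; its initiator letters are TCAGTT, and its +28 letters do not match the DPE:
pnr upstream start, chr3R:16026214-16026294, plus: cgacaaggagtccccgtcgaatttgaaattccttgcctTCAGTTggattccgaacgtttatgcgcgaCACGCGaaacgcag
It read 3.39, 4.34, 5.09 and 5.44 in tinWT, 3.49, 2.99, 4.77 and 5.58 in F3, and 3.88, 3.48, 5.10 and 5.87 in M6, and also changed with the window (adjusted p = 0.000838). The downstream start was above it by 2.60 to 4.19 in the 12 libraries.

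pnr also has 6 antisense TSSs, of which 3 changed with the window. Of all TSSs 19.9% did, and of the 53 TSSs of the 9 genes other than their highest, 9 did. The 2 strongest antisense TSSs of pnr changed in different ways. The antisense TSS 401 bp before the stronger start rose from 0-2 to 2-4 h by 1.41 ± 0.33 (adjusted p = 0.0212). The antisense TSS 3.35 kb into the longer transcripts read 4.16, 5.05, 4.22 and 2.69 in tinWT, 3.32, 4.79, 3.21 and 2.47 in F3, and 4.12, 4.59, 3.90 and 1.86 in M6. It is highest at 2-4 h and lowest at 6-8 h in every strain, when the pnr starts are at or near their highest (adjusted p = 0.000882 in the F test).

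**Figure D3:**
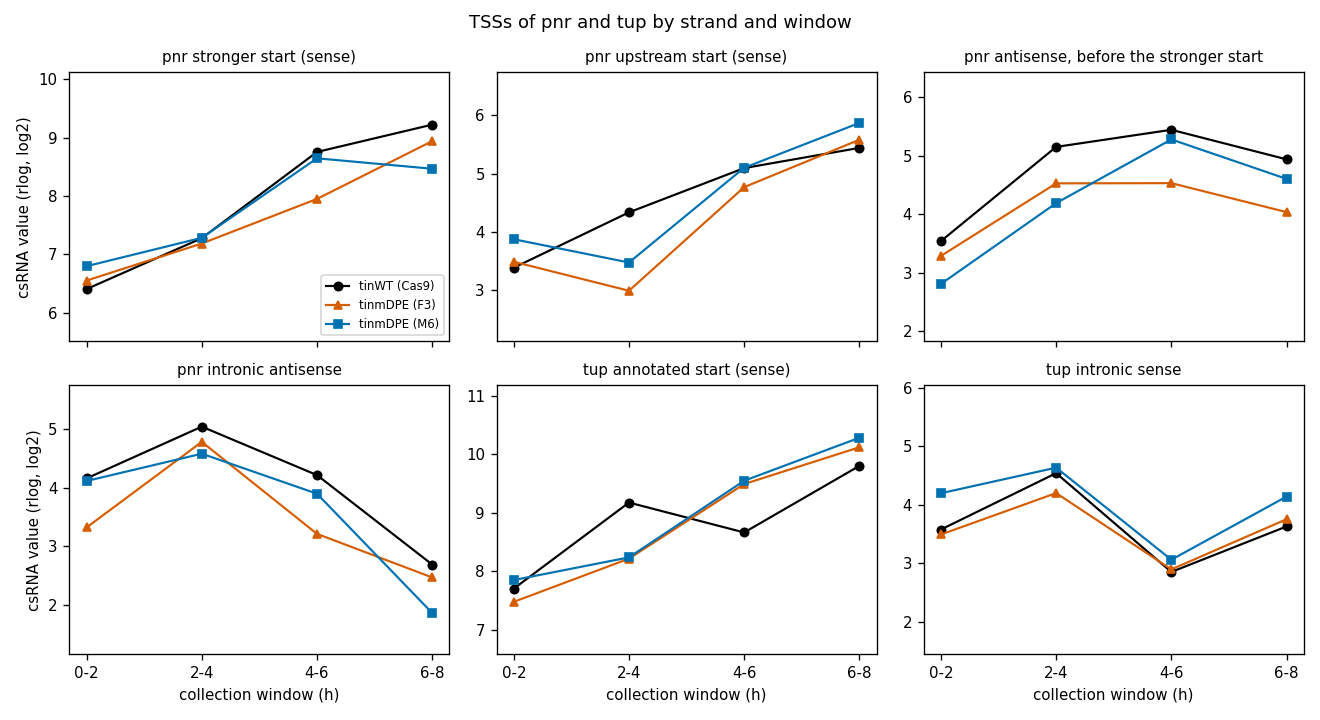
Values (rlog, log2 scale) of 4 TSSs of pnr and 2 of tup against the collection window, 1 line per strain; every panel spans the same range of log2 units. Both pnr starts end higher than they began, while the intronic antisense TSS of pnr peaks at 2-4 h and the intronic sense TSS of tup is lowest at 4-6 h.

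Among the partners, the antisense TSS assigned to Hand read 5.91, 7.97, 6.31 and 5.64 in tinWT, 5.75, 7.22, 5.74 and 5.58 in F3, and 5.99, 6.83, 5.84 and 5.73 in M6. It rose by 1.46 ± 0.30 to 2-4 h (adjusted p = 0.0122) and fell by 1.38 ± 0.30 to 4-6 h (adjusted p = 0.0268), and each strain shows both steps. Without the tinWT 2-4 h library neither passed, with adjusted p = 0.0519 and 0.0544. The neighbouring gene on the far side is CYLD, and this TSS is between the genes. Whether it is a start of CYLD or a divergent TSS of Hand was not tested. svp, a COUP-type nuclear receptor gene of the heart cells that form inflow valves, read 6.88, 7.43, 7.02 and 9.08 in tinWT, 6.42, 7.08, 7.93 and 9.34 in F3, and 5.68, 7.64, 7.88 and 8.57 in M6. The 6-8 h libraries are the highest in each strain, but no single step passed; the last, 1.38 ± 0.35, had adjusted p = 0.0923. tup, the fly Islet gene, read 7.70, 9.18, 8.67 and 9.80 in tinWT, 7.48, 8.22, 9.49 and 10.12 in F3, and 7.85, 8.24, 9.55 and 10.29 in M6. F3 and M6 are at most 0.37 apart in every window, and the tinWT line crosses them, above both at 2-4 h and below both at 4-6 and 6-8 h. An intronic sense TSS of tup, 5.9 kb inside the gene, fell by 1.52 ± 0.31 from 2-4 to 4-6 h (adjusted p = 0.0172), while the tup promoter read higher at 4-6 h in F3 and M6 and lower in tinWT.

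By mean over the libraries the order was Doc1 (13.6), mid (10.8), Doc3 (10.3), Doc2 (9.64), tup (8.88), pnr (7.79), svp (7.58), tin (6.29), the Hand TSS (6.21) and the H15 TSS (4.09). Doc1 was above mid in 12 of 12 libraries. The neighbours mid and Doc3, pnr and svp, and tin and Hand differed by 0.46 ± 0.50, 0.21 ± 0.67 and 0.08 ± 1.13 (mean ± SD over libraries, n = 12). mid was above Doc3 in 10 of 12 libraries, pnr above svp in 7 and tin above Hand in 6. The order within these pairs varied between libraries and was not tested.

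The second question is whether the genes differed between tinmDPE and tinWT, and how tin read in the same libraries. tin itself read 5.48, 7.61, 7.06 and 7.45 in tinWT, 4.76, 5.68, 6.37 and 7.12 in F3, and 4.66, 6.13, 6.24 and 6.96 in M6. Both tinmDPE strains lie below tinWT in each of the 4 windows. Over the course the difference was -0.91 ± 0.23 (SE, adjusted p = 0.125), and at 2-4 h it was -1.70 ± 0.25, with adjusted p = 0.0126, or 0.126 when TSSs under the 25th percentile of means were left out. At 0-2, 4-6 and 6-8 h tin did not pass, with adjusted p = 0.402, 0.356 and 0.990. The tin value at 2-4 h rests on 1 tinWT library.

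Over the course 0 of 9 members passed in limma, where 0.323% of all TSSs did. An unadjusted p under 0.05 was found for 4456 of all 45839 TSSs and for 2 of the 9, Doc1 and H15. Their differences were -0.36 ± 0.13 for Doc1 (adjusted p = 0.347) and -0.60 ± 0.25 for H15 (adjusted p = 0.439). Hand followed with -0.37 ± 0.22, Doc2 with -0.23 ± 0.16 and pnr with -0.19 ± 0.21. Doc3, svp and tup lay at -0.04 ± 0.26, -0.04 ± 0.26 and 0.07 ± 0.23, and mid at 0.31 ± 0.24. All 9 were less negative than tin. In the 8 differences between a tinmDPE library and the tinWT library of its window, Doc2, H15 and tin were lower in 8 and Doc1 in 7. Hand was lower in 6, pnr in 5, Doc3 and svp in 4, tup in 3 and mid in 2. Both differences of a window share 1 tinWT library, so the 8 are not independent. The share of all TSSs with such counts was not computed. F3 and M6 differed in 0 of 9 members, where 0.00218% of all TSSs did. An unadjusted p under 0.05 was found for 1735 of all 45839 TSSs and for 0 of the 9, whose sizes ran from -0.48 for mid to 0.32 for H15.

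Within windows no member passed either. The counts were 0 of 9 at 0-2 h (0.301% of all TSSs), 0 of 9 at 2-4 h (6.38%), 0 of 9 at 4-6 h (0.777%) and 0 of 9 at 6-8 h (0.367%). At an unadjusted p under 0.05 in limma there were 0, 3, 2 and 1 members in these windows. Of all 45839 TSSs, 4524, 8484, 5059 and 3086 were under it. At 2-4 h the TSSs called number 2924 of 45839, and 4 of 34379 when those under the 25th percentile of means are left out. At 2-4 h all 9 fitted differences were below 0, with a median of -0.73 against -0.05 over all TSSs. Of all TSSs 62.1% were lower, or 43.9% with quantile normalization and 42.8% with centred library medians. With centred library medians pnr and svp turned positive, at 0.11 and 0.09. The tinWT library lay above both tinmDPE libraries for 7 of the 9, and the share of all TSSs of which this holds was not computed. The differences nearest to the threshold were those of tup, at -0.95 ± 0.21 (adjusted p = 0.0553), and the Hand TSS, at -0.94 ± 0.25 (adjusted p = 0.101). Doc3 had -1.09 ± 0.34 (adjusted p = 0.16), from -1.53 in F3 and -0.65 in M6, where tin had -1.93 and -1.48.

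At 4-6 h the members divided. Doc1, Doc2, H15, pnr and Hand were lower in both tinmDPE libraries than in tinWT, with fitted differences from -0.53 to -0.18. Doc3, mid, svp and tup were higher in both, at 1.04 ± 0.34, 0.61 ± 0.45, 0.88 ± 0.46 and 0.86 ± 0.21. No member has its tinWT value between those of F3 and M6 in this window, and tin was lower in both, at -0.75 ± 0.25. The share of all TSSs of which this holds was not computed. The split rests on 1 tinWT library, in which the authors did not call the highest TSSs of Doc3, pnr, svp and tin. The change of the genotype difference between windows was tested by the interaction, which 0 of 9 passed in limma, where 4.95% of all TSSs did. With centred medians or without a variance trend 2 of 45839 TSSs passed, and with the filter on weak TSSs 5 of 34379. In the main fit 7572 of all TSSs had an unadjusted p under 0.05. Among them were tup and Doc3, with adjusted p = 0.0725 and 0.196.

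**Figure D4:**
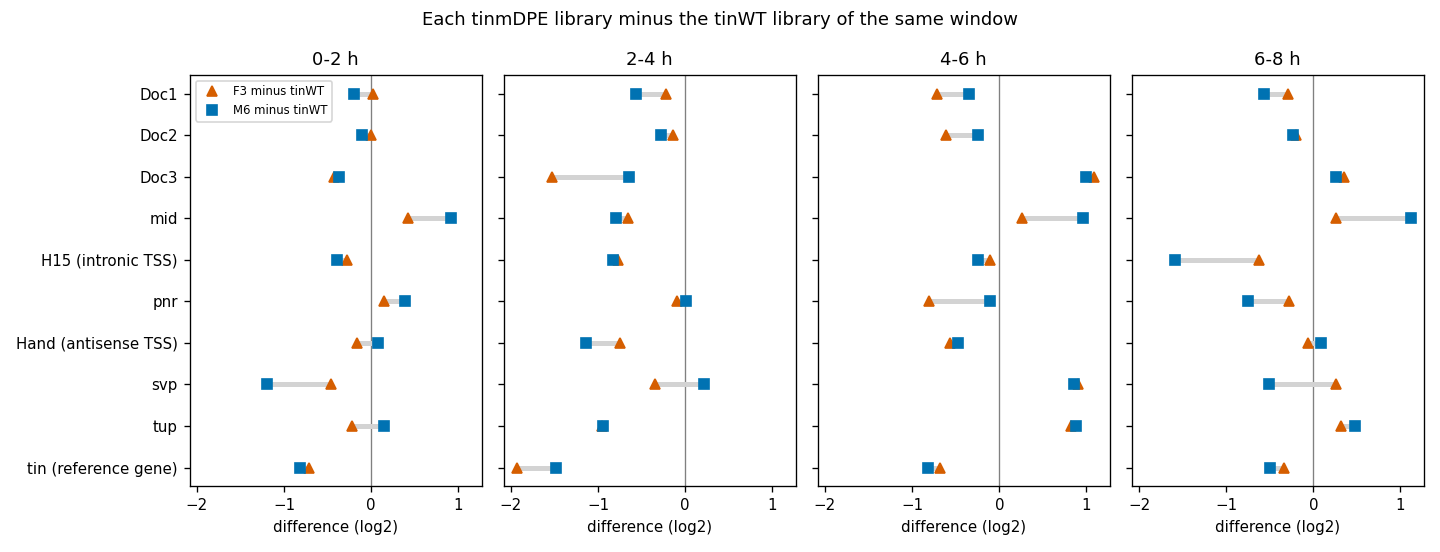
Difference of each tinmDPE library from the tinWT library of the same window (log2 units), by gene, with F3 as triangles, M6 as squares and a grey bar joining them. tin lies left of 0 in all 4 windows, while Doc3, mid, svp and tup lie left of or around 0 at 2-4 h and right of it at 4-6 h.

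Set directly against tin in the same library, the value of a member minus that of tin was higher in both tinmDPE libraries than in tinWT at 2-4 h for all 9 members. Doc1 exceeded tin by 6.25 in tinWT and by 7.96 in F3 and 7.17 in M6, and Doc2 by 1.98, 3.77 and 3.18. For pnr this difference was -0.33 in tinWT and 1.51 and 1.16 in F3 and M6, and for svp -0.18, 1.40 and 1.51. At 6-8 h it was higher in both tinmDPE libraries for 5 members, lower in both for H15, and had the tinWT value between them for 3. From 2-4 to 6-8 h the range over the 3 libraries became smaller for 7 members and larger for 2, mid and tup. It went from 1.71 to 0.12 for Doc1 and from 1.84 to 0.31 for pnr, but from 1.27 to 1.61 for mid, from 1.16 to 1.09 for H15 and from 0.97 to 0.98 for tup. These differences share the tin values of each library, so they are not independent of one another. At 2-4 h tin itself differed from tinWT by -1.93 in F3 and -1.48 in M6, so any TSS that fell less reads higher against it. At 6-8 h the tin differences were -0.34 and -0.50. The counts and ranges above therefore carry the change of tin itself, and the share over all TSSs was not computed.

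Marker lists moved with these differences. At 2-4 h the mean over 4 maternal RNA genes was 5.61 in tinWT against 6.68 in F3 and 6.88 in M6, and that over 4 neural genes was 9.12 against 7.95 and 8.57. At 4-6 h the neural mean was 8.31 in tinWT against 9.05 and 9.13, the same order as for Doc3, mid, svp and tup. Of its 4 genes elav, nerfin-1 and dpn followed this order, and scrt did not, at 10.06 in tinWT against 9.46 and 9.26. The mean over 4 cellularization genes at 4-6 h was also lower in tinWT, 2.94 against 3.91 and 3.71. The 8 sarcomere genes had list means of 5.19 to 5.77 in the 4 tinWT libraries and of 4.51 to 8.74 in the 8 tinmDPE libraries. Of these genes, 8 of 8 were higher over the course in tinmDPE and 0 passed the test in limma. Of all TSSs 49.6% were lower over the course. The list was chosen with earlier results of these data known, and its genes share the same libraries. The 8 are therefore not separate results. At 4-6 h the list mean of M6, 4.51, lay below the 5.19 of tinWT. Every other tinmDPE library lay above the tinWT library of its window. The part of any of these lists in the differences of the heart genes was not tested.

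**Figure D5:**
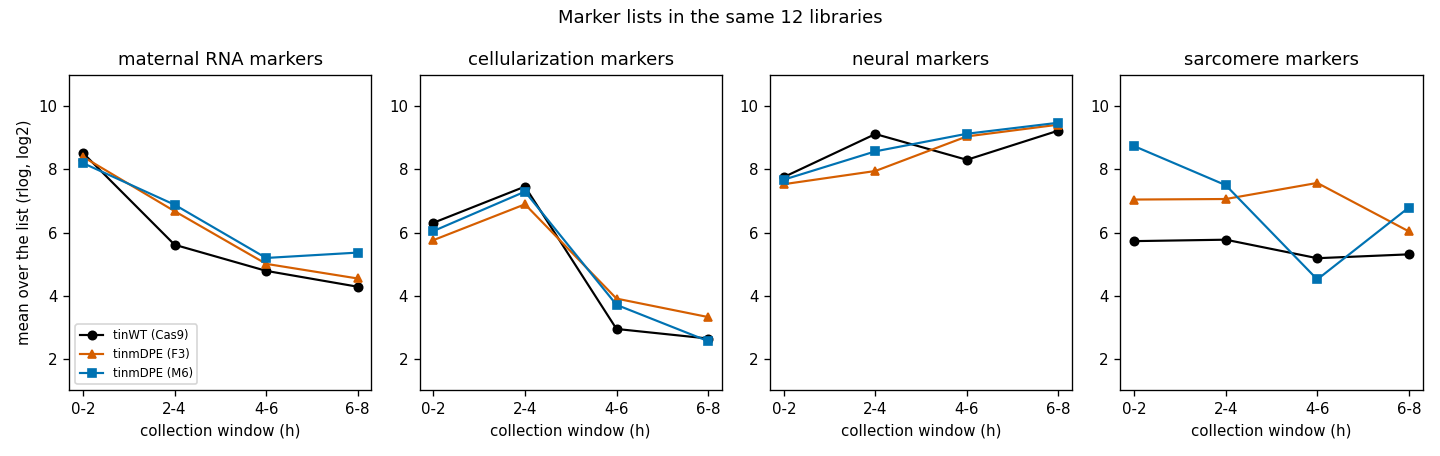
Mean value (rlog, log2 scale) over each marker list against the collection window, 1 line per strain. The tinWT line is the lowest of the maternal list at 2-4 h, highest of the neural list at 2-4 h and lowest of it at 4-6 h.

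The other TSSs of the 9 genes, 53 in all, were mostly weak: of all 62, 19 were on the gene's strand and 43 antisense, 28 were called in 1 library, and 19 had a mean above 2. With the window 9 of the 53 changed, a smaller share than the 19.9% of all TSSs. From 0-2 to 2-4 h 2 of the 53 rose, those of Doc1 and pnr described above (3.77% against 4.22% of all TSSs). From 2-4 to 4-6 h 1 fell, that of tup (1.89% against 1.72%). Between genotypes 0 of 53 passed in limma over the course (0.323% of all TSSs), 3 at 2-4 h (5.66% against 6.38%) and 1 at 4-6 h (1.89% against 0.777%). These 4, 1 each of mid, H15, pnr and Doc2, have a mean below 0 and were called by the authors in the tinWT library of that window and in at most 1 other library, so their entry into the table rests on the library in which they are high.

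The genes of the same families and pathways are given from lists, each gene by its highest TSS. With the window, where 19.9% of all TSSs changed, 8 of 8 T-box genes changed, the others being org-1, byn and bi, and 3 of 5 GATA genes, the others being grn and GATAe. Of 14 heart and dorsal mesoderm genes 11 changed, led by odd, Him and tin. Of 12 Dpp and Wg signalling genes 9 did, led by fz2 and dpp. Of 10 genes in the amnioserosa and dorsal ectoderm list 8 did, led by egr and Kr. That list also holds sog, a gene of the neuroectoderm. From 0-2 to 2-4 h, where 4.22% of all TSSs rose, byn and bi rose by 1.61 and 1.01, and tin, htl, odd and lbe led 6 of 14 heart genes that rose. In the signalling list dpp, wg, brk and Mad rose by 0.95 to 1.16 (4 of 12), and in the amnioserosa list tld, Kr, sog and egr rose by 0.99 to 1.21 (4 of 10). Without the tinWT 2-4 h library these counts of rises were 1 of 14, 0 of 12 and 3 of 10, and with centred library medians 2 of 14, 0 of 12 and 4 of 10. From 2-4 to 4-6 h, org-1 rose by 1.59 and Him by 1.52, while byn and zen fell by 1.12 and by 1.92. From 4-6 to 6-8 h, lbl, a homeobox gene of heart and muscle precursors, rose by 1.77 and dpp fell by 1.33. Adjusted p-values of the genes named in these steps ran from 0.00329 to 0.0391.

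Between genotypes over the course, 0 genes of these 5 lists passed in limma. At 2-4 h, where 6.38% of all TSSs passed, 2 did: tin, and wg, the Wnt gene of the segment stripes. wg read 13.3 in tinWT, 12.5 in F3 and 12.2 in M6, a difference of -1.02 ± 0.17 (adjusted p = 0.0181). Its call was lost with quantile normalization, centred medians, no variance trend and the filter on weak TSSs, at adjusted p from 0.0534 to 0.126. Of the 14 heart genes 12 were lower and 2 higher at 2-4 h, where 62.1% of all TSSs were lower. In the amnioserosa and dorsal ectoderm list, which includes sog, 10 of 10 were lower. With quantile normalization 43.9% of all TSSs were lower and with centred medians 42.8%, while the counts were 12 of 14 and 11 of 14 for the heart genes and 10 of 10 under both for the amnioserosa and dorsal ectoderm genes.

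Likeness to other genes over the 12 libraries is given as a description, since the libraries share strains and windows. The highest correlations (Pearson's r, 12118 other genes) were those of Doc1 with Dscam1 (0.99), aos (0.99) and Kr (0.99), of Doc2 with lncRNA:CR45919 (0.99), aos (0.98) and dve (0.98), and of Doc3 with Sox102F (0.99), CG43163 (0.98) and CG11125 (0.98). For mid they were Mgat2 (0.98), CG45263 (0.97) and fend (0.97), and for the H15 TSS lncRNA:CR44933 (0.97), asRNA:CR45366 (0.96) and lncRNA:CR45900 (0.95). For pnr they were CG13300, CG14441 and spi (each 0.99), for the Hand TSS SdhAL (0.98), snoRNA:Psi28S-1180 (0.97) and lncRNA:CR44401 (0.96), for svp mir-4942, Tsp96F and sens (each 0.96), and for tup Oaz, Ten-a and Kdm4B (each 0.99). tin was most like Cyp4p2 (0.95), TBC1D5 (0.95) and CG33941 (0.95). Among the members, Doc1 ranked 50th of all genes in likeness to tin, with r = 0.90, followed by Doc3 (260th, 0.85), Doc2 (304th, 0.84), tup (560th, 0.80), svp (746th, 0.77), pnr (858th, 0.75) and mid (1070th, 0.72). The Hand and H15 TSSs ranked 4157th and 5675th, with r = 0.18 and -0.09. Within the set, Doc1 and Doc2 had r = 0.97, Doc2 and pnr 0.96, Doc3 and tup 0.94, and the Hand and H15 TSSs 0.83 with each other.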

How the data were processed

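Short capped RNA was sequenced in 12 libraries from whole embryos, grouped by genotype and window from the labels (tinWT, 4 libraries; tinmDPE, 8). Per the file headers, TSS lists made for each library were combined strand by strand with HOMER's mergePeaks and then quantified by the authors with annotatePeaks.pl on dm6, with tags on the same strand; the submitters' processing notes also list STAR 2.7.10a and edgeR. The TSS caller and its thresholds are not given in the sources used here. The deposited values are rlog values on a log2 scale, made by the authors over the 12 libraries together. This transform shrinks weak TSSs towards their mean, so their changes are understated. Each merged TSS also carries a score deposited by the authors, whose scale is not stated and which was used for no result. Counts per TSS were not used, so no counting interval is given.

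The 9 genes and the gene lists were chosen with earlier results of these data known. All 45839 TSSs were fitted with limma 3.58.1 in R 4.3.3 (eBayes with a trend), without a filter, adjusted by Benjamini-Hochberg over all TSSs at a threshold of 0.05. The genotype fit had the window as covariate; within windows, group means shared the spread between F3 and M6; window tests had the strain as a block, because each strain is 1 line followed over the windows. Deviations from the window means correlated by 0.154 between libraries of Cas9, 0.0643 for F3 and 0.0669 for M6. Between libraries of different strains and windows the value was -0.0475. The deviations of a window cancel over the strains, so that value follows from those within strains. The contrast is therefore no check of the strain block. Fitted as a correlated block, the strain had a consensus correlation of -0.0896. The interaction test, and the alternatives for the listed genes and the weaker TSSs, were added after the data had been seen. All 9 members and tin are named; of the other listed genes, those past the threshold, at most 4 a list and smallest adjusted p first; likeness used the highest TSS of each gene with a mean above the 25th percentile of all TSSs, -0.80. TSSs were joined to their called positions by coordinates, and sequences were read from the RefSeq Release 6 assembly, whose 7 chromosome lengths hold all TSSs. The fits and the motif search were tested on simulated data. Alternatives tried were the scaling, the filter, the variance prior, libraries and windows left out, the block, and the TSSs that stand for a gene.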

Additional observations from a re-analysis of the deposited data

Results flagged for a closer look

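For 3 TSSs the difference between tinmDPE and tinWT changed between windows in the interaction test of limma: a plus-strand TSS upstream of Doc2 (adjusted p = 0.00731), a TSS upstream of pnr (adjusted p = 0.0145) and the highest TSS of wg (adjusted p = 0.0335). The TSSs near Doc2 and pnr were each called in 1 library, tinWT at 4-6 h and tinWT at 2-4 h, where they read -0.26 and -0.40 against means of -1.58 and -1.46 over all libraries. Their entry among the TSSs rests on the library in which they are high. For them, neither the test nor its result under another scaling is support for a difference. wg was higher in tinWT than in both tinmDPE libraries at 2-4 h (13.3 against 12.5 and 12.2) and lower than both at 4-6 h (12.1 against 12.9 and 13.0). All 3 calls held with quantile normalization, where the highest adjusted p was 0.0346. They were lost with centred library medians, at adjusted p = 0.0606, 0.216 and 0.190 for Doc2, pnr and wg, and without a variance trend, at 0.166 for each. With the filter on weak TSSs the TSSs near Doc2 and pnr are left out, and wg had adjusted p = 0.241. Nearly all calls of this test were lost there: 2268 of 45839 TSSs passed in the main fit (4.95%). Only 2 passed with centred medians, 2 without a variance trend and 5 of 34379 with the filter.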

How the results depend on the processing

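The counts of members that passed between genotypes, over the course, within each window and in the interaction, were 0 of 9 under every alternative run. With the strain as a correlated replicate block the course count was also 0 of 9, and without the replicate block in the window tests the counts were 9 in the F test and 4, 2 and 0 in the 3 steps; mid lost its call in the first step. With the mean over all TSSs of a gene in place of its highest TSS, the F test passed 2 members, the first 2 steps 1 each, and 5 members at 2-4 h were less negative than tin. The first step passed 8 with quantile normalization and 3 with centred library medians, and with no trend in the variance prior 1 passed in the last step. Fits with libraries left out gave 0 to 9 members in the F test, 0 to 2 in the first step and 0 to 1 in the second; each strain left out leaves fewer libraries to estimate the spread. Some course differences changed sign, none of them past the threshold. With the mean over all TSSs these were Doc1 0.031, Doc3 0.19, mid -0.074, svp 0.0018 and tup -0.095; Doc3 was 0.017 with quantile normalization, 0.085 without 0-2 h and 0.32 without 2-4 h; svp was 0.23 without 0-2 h; tup was -0.20 without 4-6 h and -0.044 without 6-8 h. Leaving out F3, M6 or the tinWT 2-4 h library gave -0.13 to 0.32 for Doc3, -0.16 to 0.089 for svp and -0.0096 to 0.41 for tup. Within windows, centred medians gave 0.11 for pnr and 0.087 for svp at 2-4 h. With the mean over all TSSs, Doc1 was 0.078 and svp 0.21 at 2-4 h, mid was -0.0080 and svp -0.041 at 4-6 h, and the second step of tup was -0.34. The cause of these changes was not tested, except that the mean over all TSSs adds weak and mostly antisense TSSs. An initiator within 5 bp of the start was found at the same 3 members as at the start itself. Spearman's in place of Pearson's correlation moved the likeness to tin by over 0.1 for Hand only, to -0.20. rlog values near the floor limit what can be seen of weak TSSs.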

Other observations

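Base composition moved with the genotype difference across promoter TSSs. Over 16639 promoter TSSs with a mean above the 25th percentile, the percent of G and C in the first 40 transcribed bases correlated with the tinmDPE minus tinWT difference by 0.27 in the 0-2 h libraries and by -0.22 in those of 2-4 h. In the later windows the correlations were 0.13 and 0.10. For F3 minus M6 they were -0.25, 0.08, 0.01 and -0.08 over the windows in order. These are across TSSs, which are not independent replicates. The highest TSSs of the 9 genes have 45.0 to 60.0% G and C there, and the part of base composition in their differences was not tested.

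In the tinWT 4-6 h library the authors did not call the highest TSS of 4 of the 10 genes, Doc3, pnr, svp and tin, although their values there were 9.77, 8.75, 7.02 and 7.06. In each of the other libraries at most 2 of the 10 were not called.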
